A study of Mus musculus with 28 samples.

Results

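The MHC class I antigen presentation genes described here are 10 of the 48587 genes counted in hippocampal microglia: B2m, the heavy chain genes H2-K1, H2-D1, H2-Q7 and H2-T23, the peptide transporter genes Tap1 and Tap2, Tapbp, and the immunoproteasome genes Psmb8 and Psmb9. They were taken by symbol from the count table by their known roles, with earlier results of these data known, and the rule itself used no measured value. All 10 had enough reads to be tested. The study asked how the gut microbiota affects microglia in the 5xFAD mouse model of Alzheimer's disease (AD), and RNA-seq was done on FACS-isolated CD11b+CD45lo hippocampal microglia of 28 mice, with 1 library per mouse.

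The mice formed 6 groups by genotype and microbial status: the WT groups held 5 SPF, 4 GF and 5 ABX mice, and the 5xFAD groups 3 SPF, 5 GF and 6 ABX mice. All were 16 weeks old. The study worked with heterozygous 5xFAD males on a C57BL/6J background, which carry mutant human APP and PS1 transgenes driven by the neuronal Thy-1 promoter, and WT mice were their littermates without the transgenes. SPF mice were free of specific pathogens but had a gut flora, and GF (germ-free) mice had none from birth on. ABX mice were SPF mice that drank vancomycin, cefoxitin, gentamicin and metronidazole for their last 8 weeks. GF mice came from a facility in Bern and the others were kept in Freiburg, so GF status and the origin of the mice cannot be told apart. Mouse FAD_GF_201 is 5xFAD according to title and genotype but WT according to its description, and it was used as a GF 5xFAD mouse.

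MHC class I molecules show peptides from the inside of a cell to CD8+ T cells. The immunoproteasome cuts proteins into peptides, the TAP transporter carries them into the endoplasmic reticulum, and tapasin holds empty class I molecules at the transporter until a peptide has bound to the heavy chain and its partner beta-2-microglobulin. Most of these genes respond to interferons, the transactivator Nlrc5 drives many of their promoters, and microglia are known to raise them in mouse models of amyloid deposition.

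Libraries held 14441610 to 29977395 reads on genes. Unless stated otherwise, values are CPM, a gene's share of the library's reads, with library sizes scaled by the TMM method and the same constant for all libraries. Library descriptions are numbered in 3 styles: the first covers SPF and ABX WT mice, the second SPF 5xFAD mice with FAD_ABX_1151, and the third every GF mouse as well as the remaining 5 ABX 5xFAD mice. The comparisons of GF 5xFAD with GF WT mice and of ABX WT with SPF WT mice thus lie within a style. Style and group cannot be told apart where SPF or ABX 5xFAD mice are compared with their WT mice, GF with SPF mice, or ABX WT with GF WT mice. The summed level of 10 microglia markers, per library total, was 61991 to 68754 CPM in WT mice and lower, 50547 to 60544 CPM, in 5xFAD mice, without overlap. Of 7 T and NK cell markers, Cd8a was at 0 in all 28 libraries, 5 others were at 0 in 25 to 27, and Klrd1 was found in every library, so that the list summed to 15.8 to 27.1 CPM in ABX WT mice and to 2.19 to 17.6 CPM in the other groups. The 5 neutrophil markers together reached 56.5 to 221 CPM in SPF 5xFAD mice and 117 CPM in mouse FAD_ABX_1151, and no more than 0.285 CPM in any other library. The 6 markers of border-associated macrophages summed to 32.8 to 242 CPM in ABX 5xFAD mice, 9.43 to 77.0 in GF 5xFAD, 15.3 to 28.3 in SPF 5xFAD, 10.7 to 41.9 in GF WT and at most 8.09 CPM in SPF and ABX WT mice. The 6 dendritic cell markers summed to 16.1 to 23.9 CPM in GF 5xFAD and 10.8 to 62.9 CPM in ABX 5xFAD mice, against 8.59 to 15.1 in GF WT, 8.65 to 11.0 in ABX WT, 8.06 to 12.4 in SPF WT and 4.31 to 10.4 CPM in SPF 5xFAD mice. The 4 monocyte markers summed to 10.3 to 51.9 CPM in ABX 5xFAD mice and to at most 24.9 CPM in the other groups. The part of these lists in the values below was not tested, apart from the settings that leave mice out. In RNA of sorted cells, a change in the share of cells that use a gene and a change per cell cannot be told apart.

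B2m lies on chromosome 2 and the other 9 genes within the MHC on chromosome 17 (GRCm38). Promoters from 250 bases before to 50 bases after the start site were at hand for 9 of the 10 genes (RefSeq, GRCm38.p6), all but Tap2. They are shown for B2m and for the 3 heavy chain genes with the largest changes in 5xFAD mice. A kB motif (GGGNNNNNCC, bound by NF-kappaB factors) was found on either strand in the promoters of B2m, H2-K1, H2-D1, H2-Q7, Tap1 and Psmb9, 6 of the 9, and in 53.52% of all genes with a promoter. The core of the interferon response element (GAAANNGAAA) was found in B2m and H2-T23, 2 of the 9, and in 3.99% of all genes. The promoters of H2-K1, H2-D1 and H2-Q7 held AAGTGAAA, a motif chosen after these promoters were seen, and so did those of 1.91% of all genes. The stretches with both kinds of motif are given 5′ to 3′ on the strand of the gene, with the motif letters in capitals. In B2m (chr2:122147548-122147570, plus strand) the interferon element comes before the kB motif, and in H2-K1 (chr17:34000430-34000458, minus strand), H2-D1 (chr17:35262923-35262951, plus strand) and H2-Q7 (chr17:35439022-35439049, plus strand) the kB motif comes first and AAGTGAAA follows in reverse complement.
B2m: GAAACTGAAAatGGGAAAGTCCC
H2-K1: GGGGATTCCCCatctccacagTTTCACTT
H2-D1: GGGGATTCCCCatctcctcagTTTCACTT
H2-Q7: GGGGATTCCCatctccccagTTTCACTT
The H2-K1 and H2-D1 stretches have the same length, and that of H2-Q7 is shorter by 1 base. A match is a description of letters and no evidence of binding. The similarity also holds for the transcripts. Of all 50-base runs, the length of the reads, 26.5% in H2-Q7, 14.5% in H2-T23, 12.8% in H2-D1 and 9.6% in H2-K1 occur in other genes. In B2m 0% do, and in Tapbp 23.2%, most of them shared with Gm19412. Levels of H2-Q7 above all are thus uncertain where reads could be split among class I genes.

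B2m was by far the most abundant of the genes per kb of gene length, which is the summed length of a gene's exons. In SPF WT mice its level was 1795 ± 202 CPM per kb (SD, n = 5), against 167 ± 19.7 for H2-D1, 154 ± 12.1 for Tapbp and 120.1 ± 13.9 for H2-K1. H2-T23, which encodes the nonclassical molecule Qa-1, followed with 51.7 ± 4.65 CPM per kb. Psmb8, Tap2, Psmb9 and Tap1 had mean levels of 44.1, 37.2, 17.7 and 12.7 CPM per kb. H2-Q7, which encodes the nonclassical molecule Qa-2, was close to the limit of detection, with 4 to 68 reads per SPF WT library. The 6 groups differed for all 10 genes (adjusted p from 1.89e-14 for H2-D1 to 0.0238 for Psmb9, quasi-likelihood F-test of edgeR, Benjamini-Hochberg adjusted over 15298 genes), as they did for 33.2% of all genes tested.

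**Figure D1:**
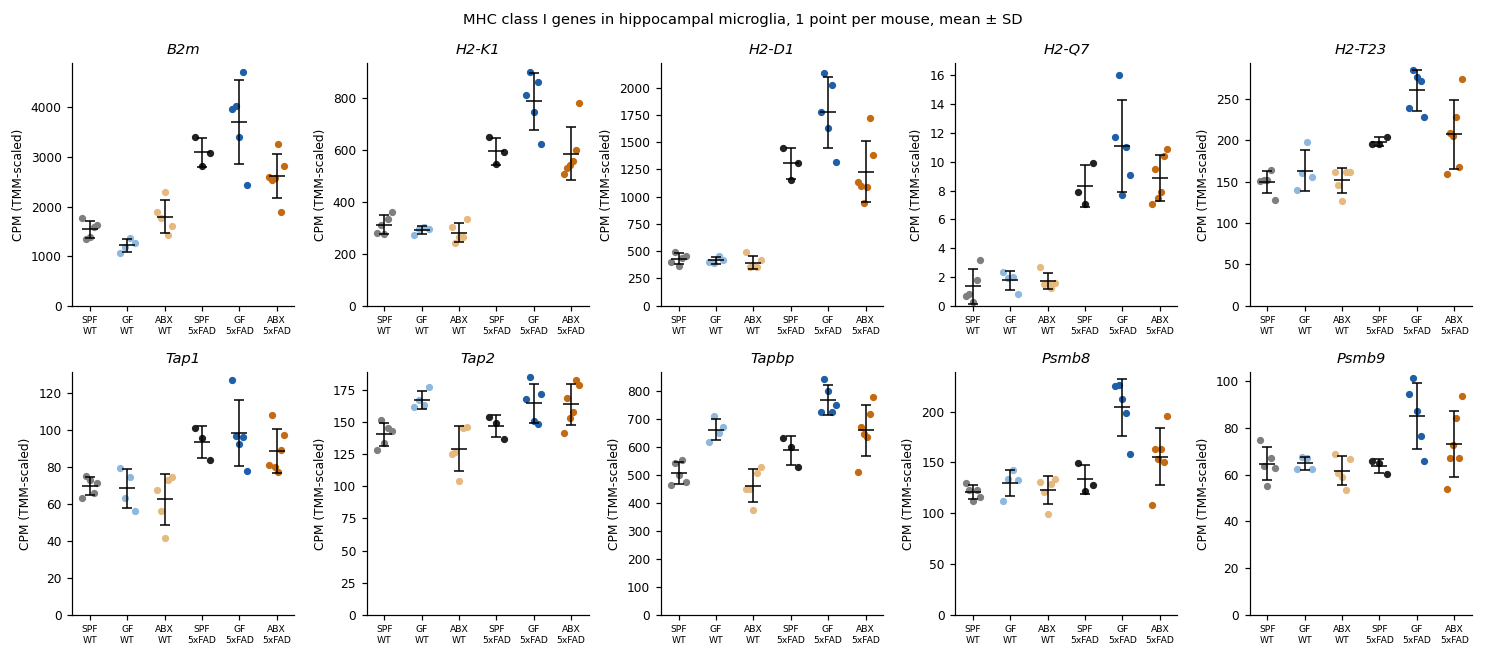
TMM-scaled CPM of each MHC class I gene (linear axes from 0) in the 6 groups, with 1 point per mouse and bars for the mean ± SD. H2-K1, H2-D1 and H2-Q7 were higher in all 14 5xFAD mice than in any of the 14 WT mice. B2m, H2-T23, Tap1, Tap2, Tapbp, Psmb8 and Psmb9 overlapped, with 13 of the 14 5xFAD mice above all WT mice for B2m and 3 for Tap2. The share of all genes with such a separation was not counted.

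Genes of the class I molecule itself were compared between 5xFAD and WT mice first. H2-D1, a classical heavy chain gene, rose the most of the abundant genes. In SPF WT mice its CPM values were 362, 402, 435, 455 and 495, in GF WT mice 389, 398, 417 and 457 and in ABX WT mice 351, 353, 363, 418 and 493. In SPF 5xFAD mice they were 1157, 1311 and 1448, in GF 5xFAD mice 1316, 1627, 1777, 2025 and 2137, and the lowest, median and highest of the 6 ABX 5xFAD mice 946, 1115 and 1719. No 5xFAD mouse came near the WT range, and the highest values stood in GF 5xFAD mice. The rise over WT mice was 3.04-fold in SPF (log2 fold change 1.60 ± 0.15, SE, adjusted p = 8.84e-09), 4.28-fold in GF (2.10 ± 0.15, adjusted p = 2.95e-11) and 3.1-fold in ABX mice (1.63 ± 0.13, adjusted p = 4.19e-10). Exact permutation tests (two-sided, on log2 CPM) gave p-values of 0.0179, 0.00794 and 0.00216, the smallest values that these group sizes allow.

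H2-K1, the other classical heavy chain gene of this strain, followed the same order at a smaller size. Its CPM values were 278, 279.9, 311, 335 and 362 in SPF WT mice, 272, 296, 297 and 305 in GF WT mice and 241, 264, 264, 303 and 334 in ABX WT mice. They were 546, 592 and 650.1 in SPF 5xFAD mice and 623, 747, 813, 862 and 903 in GF 5xFAD mice, and the lowest, median and highest values in ABX 5xFAD mice were 508, 549.6 and 784. Again no 5xFAD mouse overlapped with the WT mice. H2-K1 rose 1.9-fold in SPF (log2 fold change 0.93 ± 0.13, SE), 2.7-fold in GF (1.43 ± 0.12) and 2.08-fold in ABX mice (1.06 ± 0.11), with adjusted p-values of 6.58e-06, 6.09e-10 and 2.78e-08 (edgeR).

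H2-Q7 had the largest fold changes and the smallest numbers of reads. In SPF, GF and ABX WT mice it had a mean of 1.33 ± 1.18 (SD, n = 5), 1.78 ± 0.659 (n = 4) and 1.73 ± 0.556 CPM (n = 5), and in SPF, GF and ABX 5xFAD mice of 8.29 ± 1.46 (n = 3), 11.1 ± 3.19 (n = 5) and 8.88 ± 1.62 CPM (n = 6). The highest WT mouse reached 3.18 CPM and the lowest 5xFAD mouse 7.04 CPM. The log2 fold changes were 2.63 ± 0.43, 2.63 ± 0.43 and 2.36 ± 0.38 (SE) in SPF, GF and ABX mice, with adjusted p-values of 0.000121, 5.13e-05 and 6.02e-05 (edgeR). A filter of at least 10 reads in every library removed the gene.

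B2m, the light chain shared by all class I molecules, rose in 5xFAD mice under every condition, but by different amounts. Its CPM values were 1354, 1378, 1597, 1626 and 1764 in SPF WT, 1054, 1177, 1258 and 1370.2 in GF WT and 1424, 1599, 1773, 1899 and 2295 in ABX WT mice. They were 2810.4, 3081 and 3394 in SPF 5xFAD and 2427, 3400.1, 3969, 4028 and 4713 in GF 5xFAD mice, and the lowest, median and highest ABX 5xFAD values were 1886, 2586 and 3272. Only 1 5xFAD mouse, in the ABX group, lay below the highest WT mouse, which was also treated with antibiotics. The rise was 3.05-fold in GF (log2 fold change 1.61 ± 0.16, SE, adjusted p = 7.69e-09), 2-fold in SPF (1.00 ± 0.16, adjusted p = 7.65e-05) and 1.45-fold in ABX mice (0.54 ± 0.14, adjusted p = 0.00655). The change in ABX mice was smaller than that in GF mice by 1.07 on the log2 scale (difference -1.07 ± 0.20, SE, adjusted p = 0.00762, edgeR interaction test). B2m was the only member with such a difference, against 1.76% of all genes in either direction. The conditions differed in both genotypes: in WT mice B2m was higher under ABX than GF conditions (log2 fold change 0.57, adjusted p = 0.0221), and in 5xFAD mice it was lower (-0.50, adjusted p = 0.0158). Without mouse WT_ABX_911, WT_GF_199 or WT_GF_229 the first of these calls was lost (adjusted p from 0.0614 to 0.0853), and without mouse FAD_GF_185 the second (adjusted p = 0.0711). The interaction held without any of the 28 mice, with a difference between -1.20 and -0.95.

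H2-T23 had smaller fold changes than the classical heavy chain genes, a difference that was not tested. Mean levels were 149 ± 13.4 (SD, n = 5) in SPF WT and 198 ± 5.25 CPM (n = 3) in SPF 5xFAD mice, 163 ± 24.5 (n = 4) and 261 ± 25.0 CPM (n = 5) in GF mice, and 152 ± 15.5 (n = 5) and 207 ± 41.8 CPM (n = 6) in ABX mice. The log2 fold change was 0.67 ± 0.12 (SE) in GF (adjusted p = 0.000254) and 0.45 ± 0.11 in ABX mice (adjusted p = 0.00603, edgeR). In SPF mice it was 0.41 ± 0.13 with an adjusted p of 0.0815, although the 3 SPF 5xFAD mice lay above all 5 SPF WT mice (exact permutation p = 0.0179). It passed there under 4 of 8 other settings, namely DESeq2, voomWithQualityWeights, the SPF groups alone and 26 mice (adjusted p from 0.000774 to 0.0372).

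**Figure D2:**
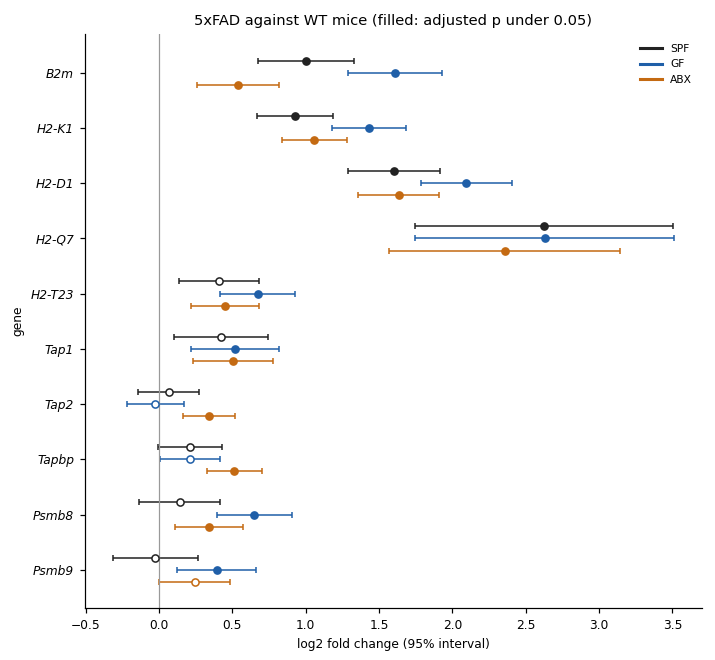
Difference between 5xFAD and WT mice as log2 fold change (x axis, point with 95% interval) for each gene (y axis) under SPF, GF and ABX conditions, with filled points for an adjusted p under 0.05. The class I heavy chains H2-Q7, H2-D1 and H2-K1 and B2m stand furthest to the right, and Tap2 in GF mice and Tap2 and Psmb9 in SPF mice lie closest to 0.

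The genes of peptide transport and loading were compared next. Tap1, a subunit of the TAP transporter, had 69.6 ± 4.80 and 93.4 ± 8.72 CPM in SPF WT and SPF 5xFAD mice, 68.3 ± 10.5 and 98.0 ± 17.8 in GF mice, and 62.4 ± 13.9 and 88.6 ± 11.8 in ABX mice (SD). It rose in GF (log2 fold change 0.52 ± 0.15, SE, adjusted p = 0.0146) and ABX mice (0.51 ± 0.13, adjusted p = 0.00957, edgeR), and in SPF mice the value was 0.42 ± 0.16 (adjusted p = 0.149) with no overlap between the groups (exact permutation p = 0.0179). The GF call was lost without mouse WT_GF_231 or FAD_GF_181 (adjusted p = 0.0712 and 0.0534). Tap2, the other subunit of the transporter, and Tapbp, the gene of tapasin, rose in ABX mice, by 0.34 ± 0.09 (adjusted p = 0.00717) and 0.51 ± 0.09 (adjusted p = 0.000162) on the log2 scale. In a fit of the ABX groups alone Tap2 did not pass (adjusted p = 0.0532). In SPF and GF mice their log2 fold changes lay between -0.02 and 0.21, with adjusted p-values of 0.154 or more, although all 5 GF 5xFAD mice lay above all 4 GF WT mice in Tapbp (exact permutation p = 0.00794). The difference between the transgene's effects in ABX and GF mice did not pass for either gene (adjusted p = 0.141 and 0.256). In GENCODE M21, exons of Tap2, Tapbp and Psmb8 overlap with other genes, and those of Tap1 and Psmb9 share 212 bases on opposite strands. The library kit does not mark the strand, so these reads cannot be told apart.

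Of the immunoproteasome genes, Psmb8 encodes a catalytic subunit that replaces Psmb5 and Psmb9 the one that replaces Psmb6. Psmb8 had CPM values of 112, 132, 134 and 142 in GF WT mice and of 158, 198.8, 213, 225 and 226 in GF 5xFAD mice. These groups did not overlap, and the log2 fold change was 0.65 ± 0.13 (SE, adjusted p = 0.000408, edgeR). In ABX mice Psmb8 changed from 123 ± 13.9 to 156 ± 28.2 CPM (SD), a log2 fold change of 0.34 ± 0.11 (adjusted p = 0.0384) that lost the call when any of 7 mice was left out (WT_ABX_910, WT_ABX_911 or an ABX 5xFAD mouse other than FAD_ABX_1151, adjusted p up to 0.126). In SPF mice the value was 0.14 ± 0.13 (adjusted p = 0.769). Psmb9 rose in GF mice, from 64.8 ± 2.80 to 85.1 ± 14.3 CPM (SD, log2 fold change 0.39 ± 0.13, adjusted p = 0.0393), and had -0.02 ± 0.14 and 0.24 ± 0.12 in SPF and ABX mice (adjusted p = 0.975 and 0.175). Its GF call was lost without any of 9 mice, 4 of them the GF WT mice, with an adjusted p of up to 0.109 without mouse FAD_GF_182. In the same comparison the constitutive subunit genes Psmb6 and Psmb7 rose by 0.60 and 0.46 (adjusted p = 0.000477 and 0.00761), and Psmb5 had 0.27 (adjusted p = 0.186).

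Counted together, 4 of the 10 genes rose in SPF 5xFAD mice (B2m, H2-K1, H2-D1 and H2-Q7), against 3.73% of all genes tested, and the number ran from 3 to 6 under the other settings. The 3 SPF 5xFAD libraries are those with 56.5 to 221 CPM of neutrophil transcripts. In GF mice 8 rose, against 9.43%, and in ABX mice 9 rose, against 9.45%, and none of the 10 fell, as 0.837%, 6.2% and 4.98% of all genes did in SPF, GF and ABX mice (edgeR, adjusted p under 0.05). The median log2 fold change of the 10 genes was 0.42, 0.66 and 0.51 in SPF, GF and ABX mice, and that of all genes -0.03, -0.03 and -0.01. Ranges of the 5xFAD mice lay wholly above those of the WT mice for 6 genes under SPF, 7 under GF and 4 under ABX conditions, against 9.44%, 9.14% and 4.68% of all genes. Border-associated macrophage transcripts were also highest in ABX 5xFAD mice (32.8 to 242 CPM). Without FAD_ABX_1151, the ABX 5xFAD mouse that carried neutrophil transcripts, all 10 genes passed in ABX mice. Without this mouse and FAD_ABX_1482 the numbers were 5, 8 and 9 in SPF, GF and ABX mice. The effect of the transgene was not shown to differ between GF and SPF mice for any of the 10 genes with edgeR or DESeq2, while 5 had an unadjusted edgeR p under 0.05, and limma's voomWithQualityWeights called 1, H2-K1 (adjusted p = 0.0479). Of all 15298 genes 0 passed in this test with edgeR, 25 with DESeq2 and 116 with voomWithQualityWeights, and 1304 had an unadjusted edgeR p under 0.05, so the 0 is no result about the 10 genes. Between ABX and SPF mice 0 of the 10 genes passed with any of the 3 tools and 2 had an unadjusted edgeR p under 0.05, beside 0, 1 and 14 of all genes with edgeR, DESeq2 and voomWithQualityWeights and 1032 at an unadjusted edgeR p under 0.05.

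The conditions were next compared within a genotype. Among 5xFAD mice, GF mice had more Psmb8, Tapbp and H2-K1 RNA than SPF mice. Psmb8 CPM values were 122, 128 and 149.7 in SPF 5xFAD mice, all below the GF 5xFAD values given above (log2 fold change 0.62 ± 0.14, SE, adjusted p = 0.00477, edgeR). Tapbp had 529, 598 and 633 CPM in SPF and 722, 722, 750.1, 798 and 843 CPM in GF 5xFAD mice (0.39 ± 0.11, adjusted p = 0.0197). H2-K1 was higher by 0.41 ± 0.13 (adjusted p = 0.037), with mouse FAD_GF_201 inside the SPF range. These 3 of 10 compare with 6.97% of all genes that were higher in GF mice. H2-D1, H2-T23 and Psmb9 had log2 fold changes of 0.44, 0.39 and 0.42 and did not pass (adjusted p = 0.0602, 0.0531 and 0.0522), and all 10 values were above 0, with a median of 0.40 against 0.02 for all genes. H2-T23, Tapbp, Psmb8 and Psmb9 were higher in every GF than in every SPF 5xFAD mouse, and 10.4% of all genes were. The number of calls depended on single mice: it was 1, Psmb8, without FAD_SPF_1146 or without FAD_SPF_1148, 2 without FAD_GF_181, FAD_GF_182 or FAD_GF_185, where H2-K1 was lost, 6 without FAD_GF_201, and 5 without FAD_ABX_1151, FAD_ABX_1460 or FAD_ABX_1482. All 3 SPF 5xFAD libraries carried neutrophil transcripts, so no value without them could be had.

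Compared with GF 5xFAD mice, ABX 5xFAD mice had less B2m (log2 fold change -0.50 ± 0.13, SE), H2-K1 (-0.43 ± 0.11), H2-D1 (-0.53 ± 0.13) and Psmb8 RNA (-0.39 ± 0.11), with adjusted p-values of 0.0158, 0.0103, 0.00866 and 0.0226 (edgeR). These 4 of 10 compare with 6.07% of all genes that were lower. All 10 values were below 0, from -0.53 for H2-D1 to -0.01 for Tap2. The Psmb8 call was lost without FAD_GF_181, FAD_GF_182, FAD_GF_184 or FAD_ABX_1151 (adjusted p up to 0.0678). For H2-D1, 4 of the 6 ABX 5xFAD mice lay below all GF 5xFAD mice, and for H2-K1 5 of the 6 did, while mouse FAD_ABX_1482 reached 784 CPM of H2-K1. Without FAD_ABX_1482 the log2 fold change of H2-K1 was -0.53. In a fit of these 2 groups alone, 0 of the 10 genes passed (lowest adjusted p = 0.0849, for H2-D1), and the number of all genes that passed went from 1621 to 251. Between ABX and SPF 5xFAD mice 0 of the 10 genes passed with edgeR, DESeq2 or voomWithQualityWeights and 0 had an unadjusted edgeR p under 0.05. Of all 15298 genes 0 passed with edgeR, 8 with DESeq2 and 134 with voomWithQualityWeights, and 1085 had an unadjusted edgeR p under 0.05. Without FAD_ABX_1151 and FAD_ABX_1482, 36 of all genes passed with edgeR. For the 10 genes log2 fold changes ran from -0.24 for B2m to 0.22 for Psmb8. For H2-D1 the 95% interval of that difference was -0.39 to 0.22.

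**Figure D3:**
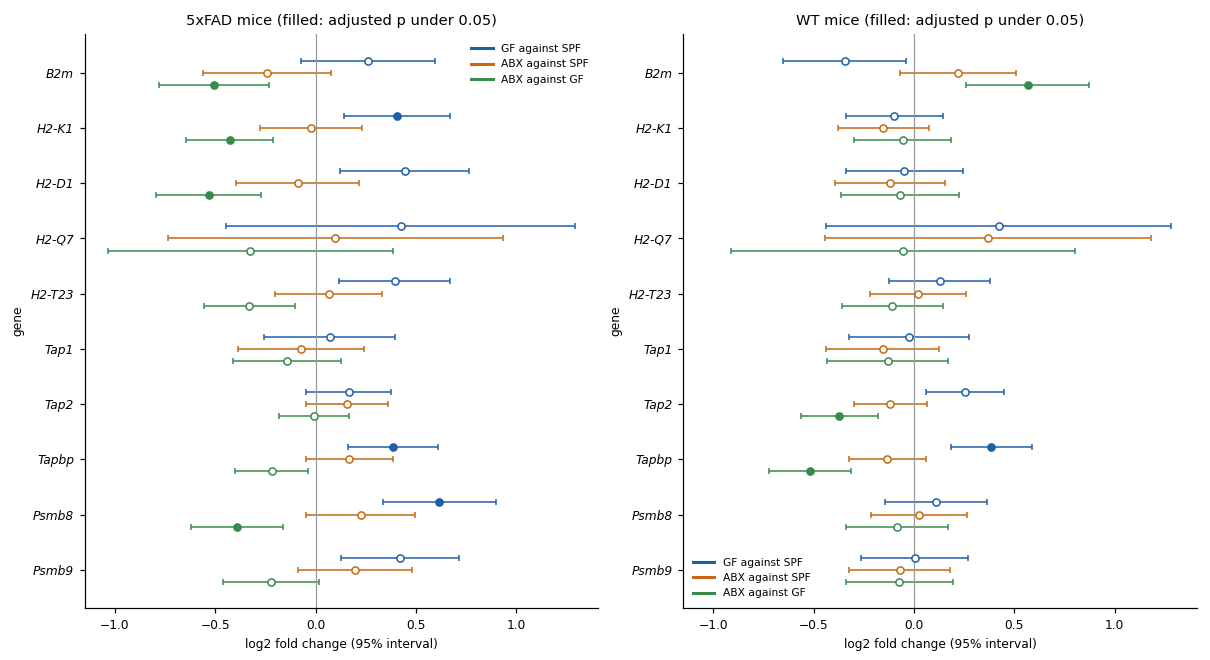
Log2 fold change between conditions (x axis, point with 95% interval) for each gene (y axis) in 5xFAD mice on the left and WT mice on the right, with filled points for an adjusted p under 0.05. In 5xFAD mice all GF against SPF values lie above 0 and all ABX against GF values below 0, and in WT mice Tapbp, Tap2 and B2m carry the filled points.

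In WT mice Tapbp, Tap2 and B2m differed between conditions, and no heavy chain gene passed the test. Tapbp had 464, 474, 499, 541 and 554 CPM in SPF WT, 616, 650.2, 669 and 709 in GF WT and 375, 449, 449.7, 506 and 527 in ABX WT mice, so that all GF mice lay above both other groups. Tap2 was also higher in every GF than in every SPF WT mouse, and 5.5% of all genes were. Tapbp was higher in GF than SPF WT mice by 0.39 ± 0.10 (log2, SE, adjusted p = 0.0413, edgeR), the 1 gene of 10 that passed, against 0.869% of all genes that were higher. That call was lost without any of WT_SPF_912, WT_SPF_925, WT_SPF_926, WT_SPF_936, WT_GF_229, WT_GF_230 and WT_GF_231 (adjusted p up to 0.151). Tapbp was lower in ABX than GF WT mice, with a log2 fold change of -0.52 ± 0.10 (adjusted p = 0.00324). Tap2 was lower there too (-0.37 ± 0.09, adjusted p = 0.0171), and with B2m, which was higher, 3 of 10 genes differed, against 6.88% of all genes. Only Tapbp passed without mouse WT_ABX_911, and Tap2 was also lost without WT_GF_231 (adjusted p = 0.0582). Every ABX WT mouse lay below every GF WT mouse in Tapbp and Tap2, as for 6.17% of all genes, and above in B2m, as for 4.68%. Between ABX and SPF WT mice, which share a numbering style, 0 of the 10 genes passed with edgeR, DESeq2 or voomWithQualityWeights and 0 had an unadjusted edgeR p under 0.05. Of all genes 0, 2 and 0 passed with these tools, and 687 had an unadjusted edgeR p under 0.05. For H2-D1, H2-K1 and H2-T23 the log2 fold changes among the WT groups lay between -0.15 and 0.13.

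Ratios within a library do not depend on its scaling, and 6 were formed from CPM per kb after the values were seen, with 30 exact two-sided permutation tests over 5 comparisons. The ratio of H2-D1 to H2-K1 was 1.39 ± 0.14, 1.44 ± 0.0829 and 1.42 ± 0.146 (SD) in SPF, GF and ABX WT mice and 2.21 ± 0.0595, 2.26 ± 0.113 and 2.13 ± 0.422 in the same order in 5xFAD mice. All 14 5xFAD mice lay above all 14 WT mice (exact p = 0.0179, 0.00794 and 0.00216, adjusted over the 30 tests 0.0488, 0.034 and 0.0216). Of the summed level of the 4 heavy chain genes, H2-D1 made up 49.1 ± 2.27% in SPF WT and 62.8 ± 1.05% in SPF 5xFAD mice, and H2-T23 15.4 ± 2.08% and 8.58 ± 0.819%. Psmb8 rose relative to Psmb5, with ratios of 2.21 ± 0.105, 1.96 ± 0.147 and 2.07 ± 0.282 in WT and 2.63 ± 0.229, 2.56 ± 0.253 and 2.78 ± 0.199 in 5xFAD mice (exact p = 0.0179, 0.00794 and 0.00216, adjusted 0.0488, 0.034 and 0.0216). Between SPF and GF 5xFAD mice no difference in this ratio was detectable (exact p = 0.661). Psmb9 relative to Psmb6 was lower in GF 5xFAD mice (0.223 ± 0.022) than in ABX 5xFAD mice (0.28 ± 0.0134, exact p = 0.00216, adjusted 0.0216), and the SPF 5xFAD value was 0.279 ± 0.0236. Psmb10, the third inducible subunit, had no ratio to Psmb7 that passed after adjustment. B2m relative to the sum of H2-K1 and H2-D1 fell from 8.11 ± 1.89 to 4.50 ± 1.21 in ABX mice (exact p = 0.00433, adjusted 0.0325), and was 6.32 ± 0.989 and 4.90 ± 0.057 in SPF and 5.16 ± 0.299 and 4.32 ± 0.461 in GF WT and 5xFAD mice (exact p = 0.0536 and 0.0317, adjusted 0.0955 and 0.0793). Tap1 relative to H2-K1 fell in 5xFAD mice under every condition. In GF mice it went from 0.112 ± 0.021 to 0.0594 ± 0.00913 (exact p = 0.00794, adjusted 0.034). In SPF mice it went from 0.107 ± 0.0136 to 0.0748 ± 0.0079, and in ABX mice from 0.106 ± 0.0203 to 0.0731 ± 0.0128 (exact p = 0.0179 and 0.0173, adjusted 0.0488 for both).

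**Figure D4:**
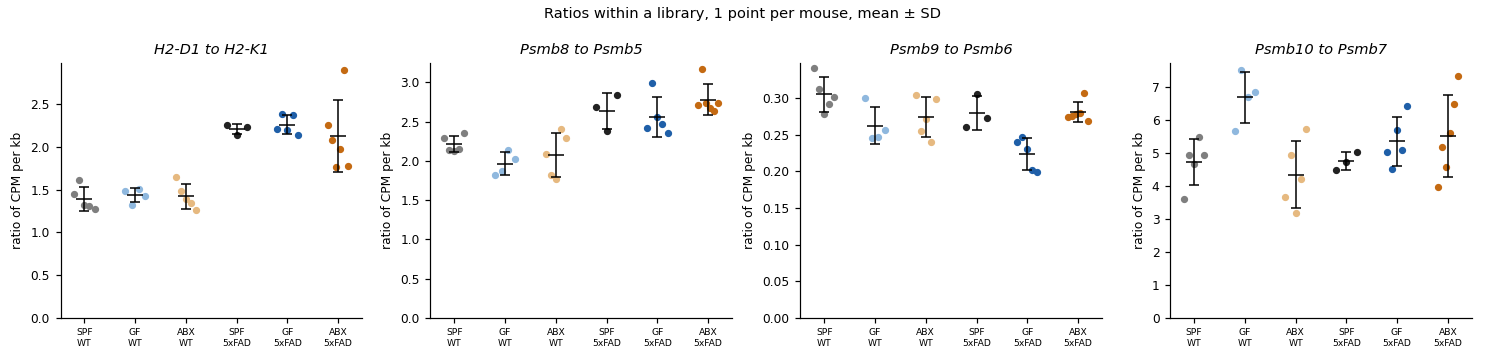
Ratios of CPM per kb within a library (linear axes from 0) for H2-D1 to H2-K1 and for each inducible proteasome subunit to its constitutive counterpart in the 6 groups, with 1 point per mouse and bars for the mean ± SD. The ratio of H2-D1 to H2-K1 separates 5xFAD from WT mice in every condition, and that of Psmb9 to Psmb6 is lowest in GF 5xFAD mice.

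Other genes of the pathway were taken from lists by function. Of 14 other class I heavy chain genes, 7 had enough reads, and 2 rose in SPF, 3 in GF and 2 in ABX 5xFAD mice, beside 3.73%, 9.43% and 9.45% of all genes. H2-Q6, a Qa-2 gene beside H2-Q7, rose from 4.41 ± 2.67 to 22.2 ± 5.30 CPM (SD) in SPF mice (log2 fold change 2.33), by 2.59 in GF and by 2.15 in ABX mice (adjusted p = 0.000138, 1.95e-05 and 4.64e-05). Of its 50-base runs 35% also occur in other genes. H2-M3, whose product presents formylated peptides, rose by 0.79, 0.97 and 0.65 (adjusted p = 8.39e-05, 5.82e-07 and 6.5e-05). H2-T22 rose (0.75, adjusted p = 0.0023) and H2-T24 fell (-0.49, adjusted p = 0.0384) in GF 5xFAD mice, and 53.5% of the 50-base runs of H2-T22 occur in other genes. H2-T24 was also lower in GF than SPF 5xFAD mice (-0.82, adjusted p = 0.00367), the 1 gene of these 7 that passed there, beside 6.97% of all genes that were higher and 5.86% that were lower. The median log2 fold changes of these 7 genes in 5xFAD against WT mice were 0.79, 0.85 and 0.65 in SPF, GF and ABX mice. H2-M2 was called higher in ABX than GF 5xFAD mice, but it had 0 reads in all 5 GF and 1 to 46 in the ABX libraries.

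Among the regulators of the pathway, Nlrc5 rose in SPF (from 5.60 ± 2.99 to 21.5 ± 2.95 CPM, SD, log2 fold change 1.94 ± 0.36, SE, adjusted p = 0.00069) and ABX mice (1.89 ± 0.32, adjusted p = 0.000115). In GF mice, where H2-K1 and H2-D1 had their largest fold changes, it had 0.71 ± 0.34 (adjusted p = 0.172), with 9.44 ± 5.30 CPM in WT and 15.5 ± 3.53 CPM in 5xFAD mice. The difference of its effect between ABX and GF mice did not pass (adjusted p = 0.187). Ifngr1, a chain of the interferon gamma receptor, fell by 0.40, 0.42 and 0.40 on the log2 scale in SPF, GF and ABX mice (adjusted p = 0.00281, 0.000186 and 0.000129). Ifnar2, a chain of the type I interferon receptor, rose in GF mice by 0.52 (adjusted p = 1.32e-05). Ifng had 0 reads in all 28 libraries, where 3 reads would amount to 0.1 to 0.208 CPM, the level that a count of 0 allows by counting error.

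Of 5 genes for the third immunoproteasome subunit, its assembly factor and the PA28 activator (Psmb10, Pomp, Psme1, Psme2 and Psme3), 0 passed in SPF (0 also at an unadjusted p under 0.05, edgeR), 3 rose in GF and 1 rose in ABX 5xFAD mice, beside 3.73%, 9.43% and 9.45% of all genes that rose. Psme1 rose by 0.68 in GF and 0.36 in ABX mice (adjusted p = 9.49e-06 and 0.00507). GF 5xFAD mice had more of 4 of the 5 than SPF 5xFAD mice, with log2 fold changes of 0.70 for Psmb10, 0.61 for Pomp, 0.60 for Psme1 and 0.60 for Psme2, beside 6.97% of all genes that were higher there. The 3 constitutive subunits Psmb5, Psmb6 and Psmb7 were also higher, by 0.66, 0.73 and 0.54 (adjusted p from 0.00155 to 0.00838). All 3 were lower in ABX than GF 5xFAD mice (log2 fold changes from -0.54 to -0.46), beside 6.07% of all genes. Among 6 genes of peptide loading and trimming, Calr, the chaperone calreticulin, rose in GF and ABX 5xFAD mice (0.41 and 0.21, adjusted p = 4.51e-06 and 0.00487), and 0 of 6 passed in SPF mice with edgeR, where 1 had an unadjusted p under 0.05. Of 4 class I-like genes 0 passed in SPF mice, with 2 at an unadjusted edgeR p under 0.05. Of all 15298 genes 699 passed in SPF 5xFAD against WT mice, and 2182 had an unadjusted edgeR p under 0.05. In GF 5xFAD mice 2 of the 4 class I-like genes fell, and in ABX 5xFAD mice 2 rose, beside 6.2% and 9.45% of all genes. Fcgrt, the neonatal Fc receptor, was higher in GF than SPF 5xFAD mice (0.83, adjusted p = 0.00346) and rose in ABX 5xFAD against WT mice (0.57, adjusted p = 0.00696), and Cd1d1 and Hfe fell in GF 5xFAD mice (-0.55 and -0.35, adjusted p = 0.0118 and 0.0113).

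Across the 28 libraries, H2-K1 followed the mean of the other 9 genes most closely (Pearson r = 0.943), then H2-T23 (0.913) and H2-D1 (0.909), and Tap2 the least (0.59). These correlations are descriptions over libraries that fall into 6 groups. Within groups, after removal of the group means, Psmb8 (0.886) and H2-K1 (0.772) still varied with the others, whereas B2m did not (0.103). Among 8886 other genes with a mean of at least 3 log2 CPM, the genes most like the mean profile were Lamp1 (r = 0.978), Cd68 (0.977), Ctsz (0.972), Ergic3 (0.971) and Lrpap1 (0.97). Lamp1 and Cd68 are lysosomal membrane proteins and Ctsz is a lysosomal protease, while Ergic3 acts in transport between endoplasmic reticulum and Golgi and Lrpap1 is a chaperone of lipoprotein receptors. Within groups their r lay between 0.824 and 0.872.

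In the order of group means, GF 5xFAD mice came first for 9 of the 10 genes, all but Tap2. For H2-K1 and H2-D1 the order went on with SPF 5xFAD, ABX 5xFAD, SPF WT, GF WT and ABX WT mice. Only the step from ABX 5xFAD to SPF WT mice lay outside the ranges of single mice, and SPF and ABX 5xFAD mice differed by less than 1 SD, as did neighbouring WT groups. For H2-Q7 the clear step lay between SPF 5xFAD and GF WT mice. For Tap2 the GF WT mice came first, with 168 ± 6.98 CPM (SD, n = 4), followed by GF 5xFAD mice with 165 ± 15.2 (n = 5) and ABX 5xFAD mice with 164 ± 15.8 CPM (n = 6), which did not differ beyond their spread. For Tapbp GF WT mice, with 661 CPM, stood between GF and ABX 5xFAD mice, above the SPF 5xFAD mean of 586 CPM. For Psmb9 neither SPF nor ABX 5xFAD mice stood clear of the WT mice.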

How the data were processed

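Hippocampal microglia of 28 mice in 6 groups were sequenced with 50-cycle single reads, 1 library per mouse. The authors deposited raw counts per gene symbol, made with CASAVA 1.8.2, FastQC 0.11.8, STAR 2.7.2 and featureCounts 1.6.2 on GENCODE M21 (GRCm38 per the study's methods, although the submitters' notes name a human build). The deposited gene length, the summed exon length, was used for CPM per kb. Levels per kb and ratios between different genes therefore depend on the annotated exons. Spike-in entries (92, at most 12 reads in a library) were set aside. Groups were taken from titles and genotypes.

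Genes were kept with edgeR's filterByExpr (minimum count 10, minimum total 15), which left 15298. All 28 libraries entered 1 fit with TMM factors and edgeR's quasi-likelihood test (edgeR 4.0.16, R 4.3.3), tested before on simulated counts. P-values were adjusted over all genes by Benjamini and Hochberg, with a threshold of 0.05. Log2 CPM used a prior count of 2, and exact permutation tests were two-sided (Python 3.11.15 with NumPy 2.4.6). The design as a whole follows the groups of the study, which named limma and edgeR. Alternatives were DESeq2 1.42.0, limma 3.58.1 with voomWithQualityWeights, RLE factors, library size alone, other count filters, fits of the compared groups alone, and leaving out mice. No replicates of a group agreed within sampling noise (lowest chi-square per degree of freedom 6.92 over 54 pairs). Libraries come from separate mice, and intervals from counts cover counting error only.

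The 10 genes and the gene lists were chosen with earlier results of these data known. All 10 are named. The list of regulators is described by single genes, and 1 result of it is not reported here. Of the other pathway genes, a selection of those that passed in a comparison is named, at most the 4 largest changes per list and comparison. Not every gene that passed is named, so a gene left out may have passed. The 5 genes most like the mean profile of the 10 are named. Promoter motifs were searched on both strands in RefSeq sequence (GRCm38.p6), with 27025 genes as the background.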

Additional observations from a re-analysis of the deposited data

Results flagged for a closer look

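H2-K1 in mouse FAD_ABX_1482 was 784 CPM, while the other 5 ABX 5xFAD mice lay between 508 and 599 CPM, a gap of 0.669 of the group's range. H2-Q7 in mouse WT_ABX_909 was 2.69 CPM, while the other 4 ABX WT mice lay between 1.25 and 1.61 CPM, a gap of 0.753 of the range. Dixon's test was applied to 50 groups, and chance alone sets about 1 in 20 of them apart, so these 2 are no more than chance would give.

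The effect of the transgene on B2m differed between ABX and GF mice by -1.07 on the log2 scale, by the test of the difference itself (edgeR, adjusted p = 0.00762). The rise over WT mice was 0.54 in ABX and 1.61 in GF mice, and all 5 GF 5xFAD mice lay above all 4 GF WT mice.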

How the results depend on the processing

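No paired analysis was possible because the groups share no replicate numbers. Of 55 single-gene changes followed, 0 reversed under any setting, and of the 33 called, 20 stayed called under every one. The 60 group means of CPM moved by less than 1 SD with library size alone. Counts of the 10 genes called changed by over 1.5 times in these cases. For GF against SPF 5xFAD mice the count was 3, but 1 with library size alone or without a low-count filter, 6 with at least 10 counts in every library, with DESeq2 or with voomWithQualityWeights, 5 without FAD_ABX_1151 and FAD_ABX_1482 (26 mice), and 1 to 6 when single mice were left out. The count over all genes moved as well, from 1962 to 1921 with library size alone, 1539 without a filter, 2126 with at least 10 counts, 2521 with DESeq2, 3872 with voomWithQualityWeights and 2467 with 26 mice. For ABX against GF 5xFAD mice it was 4, but 0 in a fit of these groups alone, where 251 of all genes passed in place of 1621, and 3 to 6 when single mice were left out. For GF against SPF WT mice it was 1, but 0 without a filter, 2 with voomWithQualityWeights, 3 with these groups alone and 0 to 1 when single mice were left out. For ABX against GF WT mice it was 3, and 1 to 3 when single mice were left out. For the difference of the 5xFAD effect between GF and SPF mice it was 0, and 1 with voomWithQualityWeights. The filters and smaller fits change the genes or mice that enter, and beyond that the cause was not tested. Scaling by library size alone moved the all-gene median in GF 5xFAD against GF WT mice from -0.03 to -0.15, and Psmb9 there (adjusted p = 0.141) and Psmb8 in ABX mice (adjusted p = 0.0896) no longer passed. H2-Q7 rests on few reads.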

Other observations

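Psmb10 relative to Psmb7, as CPM per kb, was 6.69 ± 0.767 (SD, n = 4) in GF WT mice, and 4.72 ± 0.694 in SPF WT and 4.34 ± 1.01 in ABX WT mice (n = 5 each), a difference between WT groups that was not tested. Canx and Uggt1, which belong to the glycoprotein folding cycle, were lower in GF than SPF 5xFAD mice (log2 fold change -0.36 and -0.34, adjusted p = 0.0435 and 0.0388, edgeR), in contrast to Calr, which was higher (0.28, adjusted p = 0.00448).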
